A study of Saccharomyces cerevisiae with 32 samples.

Results

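The experiment described here followed budding yeast of a tps1 mutant strain (DBY12383) from 30 to 120 min after glucose was added to cells growing on galactose. It comprised 5 of the 32 libraries of the series. The late glucose group held the libraries taken at 30, 60 and 120 min after glucose addition (n = 3), and the galactose group held the 2 tps1 libraries taken at 0 min, from the glucose course and from a parallel fructose course. All cultures, WT (DBY12000) included, were grown on 2% galactose in yeast nitrogen base (YNB) until log phase, and glucose or fructose was then brought to 2%. The late tps1 libraries in fructose, at the same 3 times, and the late glucose and galactose libraries of WT are set beside them near the end. No time had a replicate culture: the 3 late libraries were serial samples of 1 culture, so that the p-values describe serial samples and not variation between cultures. The labels do not say whether the 2 galactose libraries came from separate cultures, and the fructose course's galactose library carries a mark, trd, that the labels do not explain.

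TPS1 encodes trehalose-6-phosphate synthase, which makes trehalose-6-phosphate from glucose-6-phosphate and UDP-glucose as the precursor of the disaccharide trehalose. Trehalose-6-phosphate also restrains hexokinase, the entry step of glycolysis. Cells without Tps1 are known to grow on galactose, to be unable to grow on glucose, and to accumulate sugar phosphates and lose ATP soon after glucose is given. In wild-type yeast, glucose is known to repress the genes for galactose use and for respiration, to induce low-affinity hexose transporters, and to raise ribosomal protein genes through the RAS and protein kinase A pathway.

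TPS1 itself lay between 0 and 1.18 FPKM in the 16 tps1 libraries and between 43.2 and 325.7 FPKM in the 16 WT libraries. FPKM (fragments per kilobase of transcript and per M mapped fragments, M being the SI prefix mega) was deposited without fragment counts, and the spacing of low values put the depth of the 5 tps1 libraries between 4.98 and 6.58 M fragments over annotated genes. Summed FPKM of the late glucose libraries was 2.42 M (30 min), 2.28 M (60 min) and 2.09 M (120 min), against 1.30 M (glucose course) and 1.19 M (fructose course) in galactose, and 1 fragment over 1 kb was worth 0.178, 0.222 and 0.171 FPKM in late glucose, against 0.102 and 0.102 FPKM in galactose. Percentages of summed FPKM and equal sums refer to a smaller sum, that over annotated genes of at least 300 bp, which was 1.78, 1.84 and 1.31 M in late glucose, against 0.976 and 0.93 M in galactose. As deposited, the median gene differed by -0.03 (log2) between the groups; with each library set to an equal FPKM sum it differed by -0.76. Differences as deposited are thus close to differences from the median gene, and results with equal sums stand beside them. The total amount of RNA per cell was not measured, and in bulk samples fewer cells that express a gene cannot be told apart from less of its RNA per cell. Below, 3 values in late glucose are those at 30, 60 and 120 min and 2 values in galactose those of the glucose and the fructose course. A value with ± is a log2 difference of FPKM + 1 with its standard error, late glucose minus galactose unless stated. P-values are from limma with Benjamini-Hochberg adjustment over all tested genes. Standard errors use the spread within groups of all 32 libraries, including differences between times. They can thus be large where the 5 libraries compared differ little.

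Late glucose set about as many tps1 genes above their galactose level as below it. Of 6203 genes tested, 951 (15.3%) were called, meaning an adjusted p under 0.05 in limma and a difference of at least 2-fold. At an unadjusted p under 0.05 there were 3204. The calls divided into 464 higher (7.48%) and 487 lower (7.85%) in late glucose. With equal sums 2260 were called (36.4%), 71 of them higher (1.14%) and 2189 lower (35.3%). All 71 were among the 464, all 487 among the 2189, and no gene was called in opposite directions. The counts of called list members given below are to be read beside these shares over all tested genes. In 1629 genes (26.3%) all 3 late values lay above both galactose values, and in 1963 (31.6%) all 3 lay below. The 2 galactose libraries differed at least 2-fold at 102 genes (1.64%), and 30 and 60 min at 240 (3.87%).

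From 30 FPKM upward the median difference was more positive at higher levels. Among annotated genes averaging 1000 FPKM or more, 35.5% were called higher and 4.13% lower, with a median log2 difference of 0.65, and among those between 30 and 100 FPKM 4.10% were higher and 11.8% lower, with a median of -0.13. The lowest levels did not continue this order: between 10 and 30 FPKM the median was -0.20, and in the 776 genes under 10 FPKM, 3.09% were higher and 2.45% lower, with a median of -0.001. By coding length, the median was 0.20 for genes of 300 to 600 bp, -0.24 for those of 1500 to 2400 bp and -0.16 for those of at least 2400 bp. Among annotated genes of at least 300 bp, the 20 most abundant of each library took 26, 30.8 and 29.7% of summed FPKM in late glucose, against 16.6 and 16.6% in galactose. This share does not depend on how a library is scaled. CCW12, which encodes a cell wall mannoprotein, was the most abundant of these in each of the 5 libraries and alone took 7.16, 7.99 and 7.42% of summed FPKM in late glucose, against 3.93 and 4.25% in galactose. With shorter genes included, RPL41B, a ribosomal protein gene of 78 bp, was the most abundant at 30 and 120 min and in the glucose course's galactose library. Whether RNA quality or depth had a part in these shifts was not tested.

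**Figure D1:**
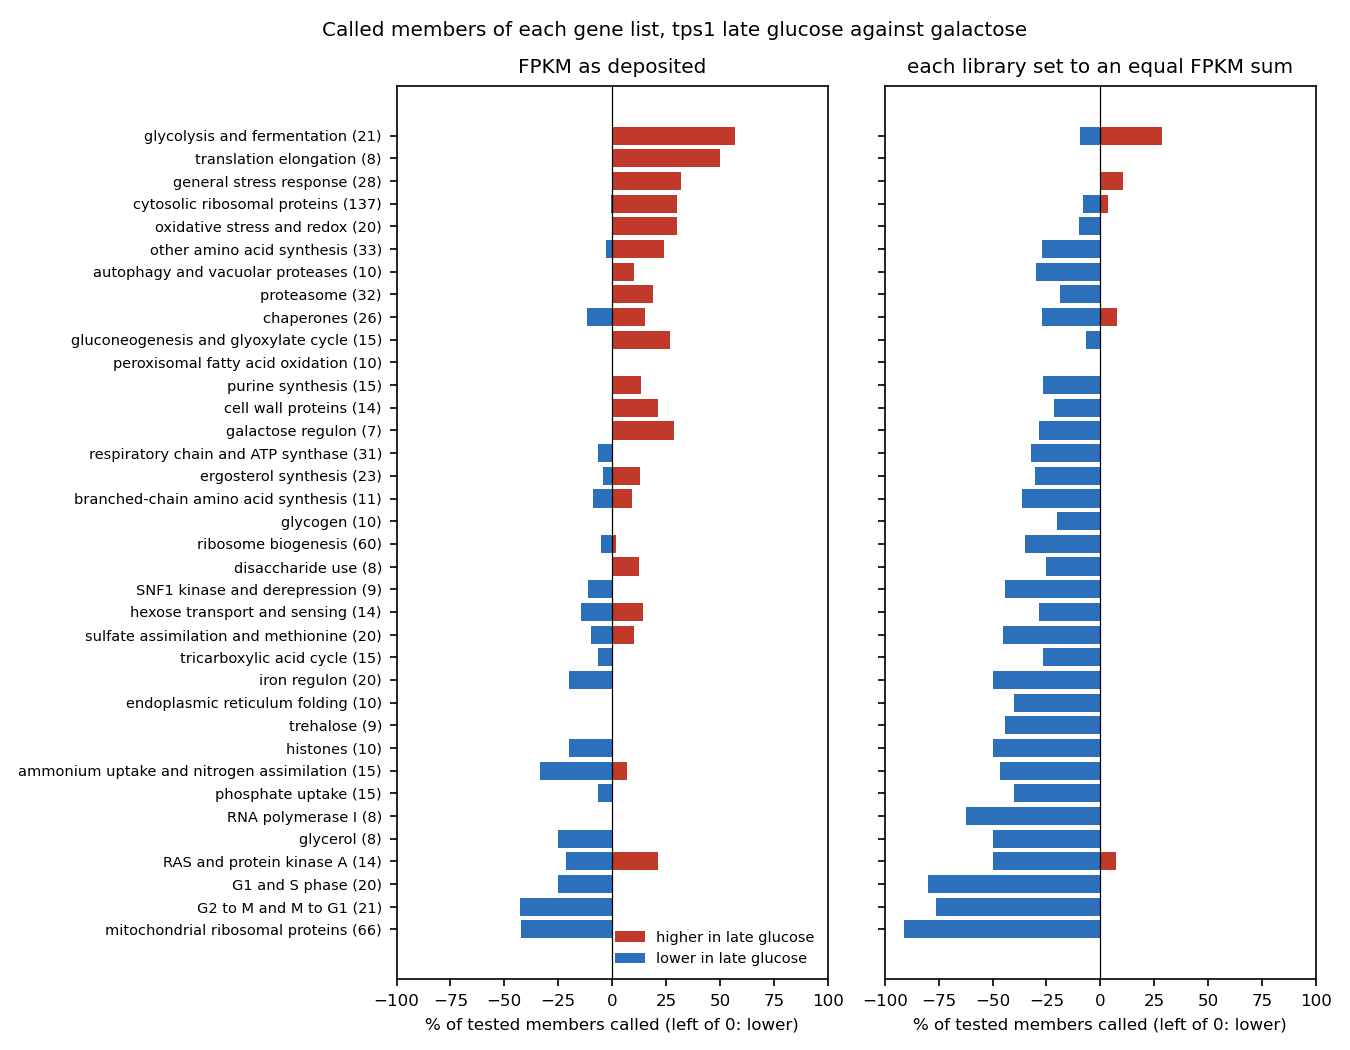
Percentage of the tested members of each gene list (number tested in parentheses) called higher (right of 0) or lower (left of 0) in tps1 late glucose against galactose, with FPKM as deposited (left panel) and with each library set to an equal FPKM sum (right panel). Glycolysis is the list most often higher in both panels, mitochondrial ribosomal proteins and mitotic genes (named G2 to M and M to G1) are among those most often lower, and most other lists with higher calls have none with equal sums.

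The 10 largest called increases included stress, glycolytic and ribosomal genes. HSP26 (YBR072W, chromosome II, 382030 to 382674, forward strand on sacCer3), for a small heat shock protein, had 62.6, 164 and 489 FPKM in late glucose, against 19.3 and 11.8 FPKM in galactose (3.42 ± 0.70, adjusted p = 0.000375). Its late values differed widely, lowest at 30 min and highest at 120 min. TDH1, an isozyme of glyceraldehyde-3-phosphate dehydrogenase, had 148, 231 and 319 FPKM in late glucose, against 30.9 and 34 FPKM in galactose (2.74 ± 0.45, adjusted p = 4.25e-05). GPM1, for phosphoglycerate mutase, had 13453, 23874 and 24415 FPKM in late glucose, against 3739 and 3581 FPKM in galactose (2.44 ± 0.32, adjusted p = 3.2e-06), and ENO2, for enolase, had 11355, 17281 and 11126 FPKM in late glucose, against 2687 and 2650.3 FPKM in galactose (2.28 ± 0.37, adjusted p = 3.76e-05). FPR1, for the prolyl isomerase that binds FK506 and rapamycin, had 7967, 14568 and 16049.7 FPKM in late glucose, against 2289.9 and 2134 FPKM in galactose (2.48 ± 0.27, adjusted p = 3.11e-07). The 10 were chosen among named genes whose late values all lay above both galactose values, so that separation is not a result. The others of the 10 were SPG4, known for survival in stationary phase (2.56 ± 0.66), GRE1, for a hydrophilin (2.54 ± 0.33), REE1, linked to enolase regulation (2.30 ± 0.30), the ribosomal protein gene RPL4A (2.29 ± 0.21) and ASC1, for a ribosome-associated scaffold (2.29 ± 0.27). All 10 were also called with equal sums. SPG4 lost its call in a fit of only the 5 libraries compared. ASC1 holds the snoRNA gene SNR24 along 89 bp of the same strand, and TDH1, ENO2 and RPL4A have similar copies whose reads could be shared.

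The 10 largest called decreases took in nutrient uptake, mitochondrial and cell cycle genes. MEP2 (YNL142W, chromosome XIV, 357453 to 358952, forward strand), for an ammonium permease that also acts as a sensor, had 159, 125 and 175 FPKM in late glucose, against 975 and 689 FPKM in galactose (-2.43 ± 0.30, adjusted p = 1.51e-06). ILV5, for the ketol-acid reductoisomerase of branched-chain amino acid synthesis, had 220.0, 365 and 563 FPKM in late glucose, against 1984 and 1529 FPKM in galactose (-2.29 ± 0.44, adjusted p = 0.000194). FTR1, for the high-affinity iron permease, had 84.9, 65.7 and 93.3 FPKM in late glucose, against 356 and 397 FPKM in galactose (-2.21 ± 0.28, adjusted p = 1.79e-06). MIG1, for the repressor that acts in glucose repression, had 8.34, 12.5 and 19.2 FPKM in late glucose, against 50.5 and 58.3 FPKM in galactose (-2.01 ± 0.37, adjusted p = 0.000141). PCL1, a cyclin gene of G1, had 18.4, 44 and 86.9 FPKM in late glucose, against 186 and 196 FPKM in galactose (-2.17 ± 0.41, adjusted p = 0.00017). The 10 were chosen among named genes whose late values all lay below both galactose values, so that separation is not a result. MEP2, ILV5, FTR1, MIG1 and PCL1 were nearer galactose at 120 min than at 30 min, MEP2 and FTR1 by less than the other 3. The remaining 5 were HLR1 (-2.18 ± 0.42), linked to cell wall composition, COQ2 (-2.15 ± 0.45) and COX10 (-2.14 ± 0.49), for enzymes of ubiquinone and haem A synthesis, MRH1 (-2.07 ± 0.38), for a plasma membrane protein related to Hsp30, and ALB1 (-2.05 ± 0.40), for a factor of the large ribosomal subunit. All 10 were also called with equal sums, as were all 487 lower calls. That scaling moved the median gene from -0.03 to -0.76, so a lower call could hardly be lost by it. PCL1 and HLR1 lost their calls in a fit of only the 5 libraries compared.

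**Figure D2:**
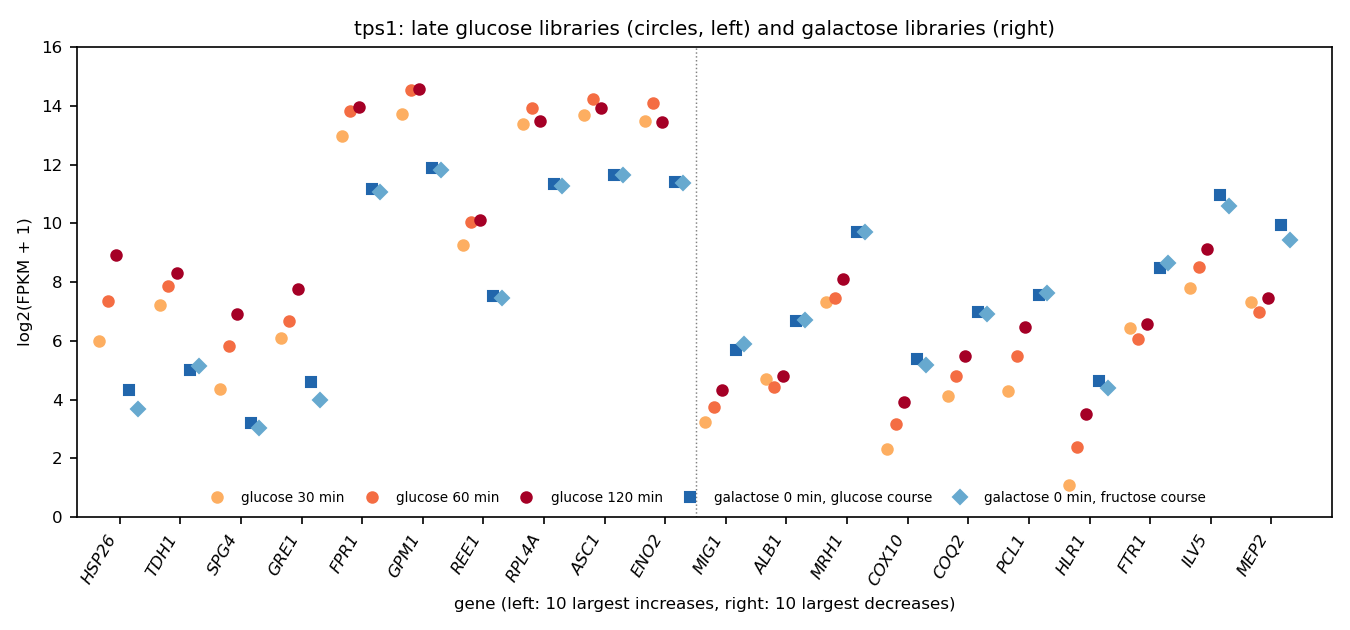
Level, as log2(FPKM + 1), of the 10 genes with the largest called increase (left of the dotted line) and the 10 with the largest called decrease (right) in each of the 5 tps1 libraries. Circles are the late glucose libraries at 30, 60 and 120 min, and the square and diamond are the 2 galactose libraries. In every gene the circles lie wholly above or wholly below the galactose points, which was a condition of the choice.

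Glycolytic and fermentation genes were the list most often higher. Of 21 tested members 12 were called higher and 0 lower, with a median log2 difference of 1.32 beside -0.03 over all tested genes; with equal sums 6 were higher and 2 lower, with a median of 0.60 beside -0.76. The list took 8.41, 10.5 and 9.6% of summed FPKM in late glucose, against 4.45 and 4.44% in galactose. TDH3 (YGR192C, chromosome VII, 882812 to 883810, reverse strand), the main glyceraldehyde-3-phosphate dehydrogenase gene, had 64707, 80354 and 44240.1 FPKM in late glucose, against 14471 and 14666 FPKM in galactose (2.07 ± 0.26, adjusted p = 1.58e-06). ADH1, for the alcohol dehydrogenase that makes ethanol, had 7724, 7622 and 4079 FPKM in late glucose, against 2819 and 2456 FPKM in galactose (1.24 ± 0.33, adjusted p = 0.00327). PDC1, for pyruvate decarboxylase, had 11075, 13003 and 6784 FPKM in late glucose, against 3573 and 3649 FPKM in galactose (1.46 ± 0.44, adjusted p = 0.00863), a call lost without the glucose course's galactose library (adjusted p = 0.0557). TDH3 stayed called with equal sums (1.30), whereas ADH1 (0.47) and PDC1 (0.69) did not. TDH3, ADH1 and PDC1 were highest at 30 or 60 min and lowest among the late times at 120 min. HXK2, for the main hexokinase and thus the entry step of glycolysis that trehalose-6-phosphate restrains, had 599, 470.1 and 454 FPKM in late glucose, against 646 and 475 FPKM in galactose (-0.14 ± 0.29, adjusted p = 0.732).

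Genes for glycerol, trehalose and glycogen gave few calls. Among 8 glycerol genes 2 were lower, and among 9 trehalose and 10 glycogen genes 0 were called in limma (medians -0.45, -0.26 and -0.03; 4 and 1 genes of the trehalose and glycogen lists had an unadjusted p under 0.05). Of the glycerol, trehalose and glycogen genes, with equal sums 4, 4 and 2 were lower and 0 higher. Trehalose gene calls (higher and lower) became 0 and 1 without the glucose course's galactose library or without 120 min. GPP1, for the glycerol-3-phosphatase that completes glycerol synthesis, had 136, 180.2 and 259 FPKM in late glucose, against 456 and 305 FPKM in galactose (-1.01 ± 0.35, adjusted p = 0.0236). GUT2, for the mitochondrial glycerol-3-phosphate dehydrogenase, had 69, 64.1 and 62.3 FPKM in late glucose, against 192 and 176 FPKM in galactose (-1.49 ± 0.57, adjusted p = 0.0349). Both calls were sensitive to leaving out 1 library. GPP1 lost its call without 30 or 60 min (adjusted p = 0.103 and 0.0551 in limma). Without the glucose course's galactose library its difference was -0.72, under 2-fold. GUT2 lost its call without any 1 of the 5 libraries (adjusted p = 0.0561 to 0.0715 in limma without 1 late library). Its difference changed little, between -1.55 and -1.43, so that no single library carried it. GPD1, for the dehydrogenase that starts glycerol synthesis, had 232, 202 and 258 FPKM in late glucose, against 385 and 289 FPKM in galactose (-0.54 ± 0.41, adjusted p = 0.304), and was called lower with equal sums (-1.31, adjusted p = 0.0143). TSL1, for a subunit of the trehalose synthase complex, had 64.3, 79.2 and 102 FPKM in late glucose, against 113 and 82.6 FPKM in galactose (-0.26 ± 0.78, adjusted p = 0.813), so that its groups overlapped.

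The genes for galactose use took about the same share of the transcriptome in both groups: 3.16, 3.4 and 3.31% of summed FPKM in late glucose, against 3.43 and 3.14% in galactose. GAL1 (YBR020W, chromosome II, 279021 to 280607, forward strand), for galactokinase, had 28885, 34094 and 22130.2 FPKM in late glucose, against 10515 and 9966 FPKM in galactose (1.45 ± 0.53, adjusted p = 0.0296). GAL10, for the epimerase of the same pathway, had 13911, 17368 and 11472 FPKM in late glucose, against 5831 and 4851 FPKM in galactose (1.40 ± 0.35, adjusted p = 0.00214). All late values of both genes were above both galactose values. GAL7, for the uridylyltransferase of the pathway, had 3911, 3019 and 3473 FPKM in late glucose, against 7018 and 5542 FPKM in galactose (-0.85 ± 0.26, adjusted p = 0.0107, a difference of under 2-fold), and GAL2, for the galactose permease, had 4496, 3467 and 3370.3 FPKM in late glucose, against 7448 and 6285 FPKM in galactose (-0.87 ± 0.67, adjusted p = 0.307). In the list of 7, 2 were higher and 0 lower, and with equal sums 0 were higher and 2 lower: there GAL1 (0.68) and GAL10 (0.63) were not called, and GAL7 (-1.63) and GAL2 (-1.64) were lower. GAL1 lost its call without either galactose library, without 30 min or without 60 min (adjusted p = 0.0585 to 0.12). Calls in the galactose list (higher and lower) became 1 and 1 without the fructose course's galactose library, 1 and 0 without the glucose course's galactose library or without 30 min or without 60 min, and 3 and 0 without 120 min. GAL1 and GAL10 overlap the noncoding RNA gene YNCB0008W along 1587 and 1548 bp, and the sources used here do not state a strand setting for the counting.

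The low-affinity hexose transporter genes stayed at low levels. HXT1, the low-affinity transporter gene best known for its induction by high glucose, had 4.32, 6.32 and 8.66 FPKM in late glucose, against 3.09 and 3.47 FPKM in galactose (0.76 ± 1.27, adjusted p = 0.66). HXT3, another low-affinity transporter gene, had 12.3, 18.3 and 31.8 FPKM in late glucose, against 13.4 and 11.1 FPKM in galactose (0.63 ± 0.82, adjusted p = 0.566), a difference that turned to -0.09 with equal sums. HXT4 had 2.58, 3.97 and 7.14 FPKM in late glucose, against 5.44 and 4.55 FPKM in galactose (-0.19 ± 0.58, adjusted p = 0.82). HXT2, for a high-affinity transporter, had 14.9, 29.4 and 58.4 FPKM in late glucose, against 11.7 and 8.69 FPKM in galactose (1.47 ± 0.54, adjusted p = 0.0296) and was not called with equal sums (0.75) or without any 1 library other than 30 min (adjusted p = 0.0596 to 0.165). The HXT genes are close copies whose reads could be shared. Among the sensing genes, SNF3, for a glucose sensor, had 4.72, 6.42 and 8.76 FPKM in late glucose, against 20 and 17.8 FPKM in galactose (-1.41 ± 0.41, adjusted p = 0.00677, and 0.0583 without the glucose course's galactose library), and MTH1, for a corepressor of HXT genes, had 51.8, 50.3 and 64.9 FPKM in late glucose, against 131 and 93.1 FPKM in galactose (-0.99 ± 0.55, adjusted p = 0.15), which was called lower with equal sums (-1.75, adjusted p = 0.0137). The transport and sensing list had 2 higher and 2 lower calls among 14; with equal sums 0 were higher and 4 lower. Calls in the transport list (higher and lower) became 1 and 2 without the fructose course's galactose library or without 60 min, 1 and 1 without the glucose course's galactose library, and 0 and 2 without 120 min.

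Genes for gluconeogenesis, which glucose represses in wild-type cells, had higher calls as deposited and none with equal sums. Of 15 gluconeogenesis and glyoxylate genes 4 were higher and 0 lower, but with equal sums 0 were higher and 1 lower. The list's median was then -0.38, beside -0.76 over all tested genes, of which 35.3% were lower. FBP1, for fructose-1,6-bisphosphatase, had 38.1, 48.3 and 43 FPKM in late glucose, against 21.4 and 17.7 FPKM in galactose (1.10 ± 0.18, adjusted p = 4.46e-05); it was under 2-fold without the fructose course's galactose library and was not called with equal sums (0.36). PCK1, for the carboxykinase of gluconeogenesis, had 14.4, 10.9 and 15.9 FPKM in late glucose, against 8.82 and 6.88 FPKM in galactose (0.73 ± 0.18, adjusted p = 0.00189, under 2-fold). SUC2, for invertase, had 345, 302 and 173 FPKM in late glucose, against 169 and 93.3 FPKM in galactose (1.06 ± 0.35, adjusted p = 0.0156), so that its 120 min value lay just above the higher galactose value. The call was lost with equal sums (0.29) and without 30 min, 60 min or the fructose course's galactose library (adjusted p = 0.0552 to 0.264). It was the 1 call among 8 disaccharide genes. SNF1, for the kinase of glucose derepression, had 16.9, 13.2 and 20.4 FPKM in late glucose, against 52.9 and 45.2 FPKM in galactose (-1.51 ± 0.21, adjusted p = 5.68e-06) and was the 1 call among 9 genes of its list, of which 4 were lower with equal sums.

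Part of the general stress genes were higher. Of 28 members 9 were higher and 0 lower, with a median of 1.0, and with equal sums 3 were higher and 0 lower (median 0.24). SPI1 (YER150W, chromosome V, 468370 to 468816, forward strand), for a cell wall protein of stressed and stationary cells, had 198, 330.2 and 544 FPKM in late glucose, against 90.8 and 68.5 FPKM in galactose (2.05 ± 0.25, adjusted p = 1.58e-06). ALD3, for a stress-induced aldehyde dehydrogenase, had 43.3, 71.2 and 132 FPKM in late glucose, against 24 and 15.3 FPKM in galactose (1.90 ± 0.31, adjusted p = 4.19e-05), and GRE1 had 67.7, 101 and 214 FPKM in late glucose, against 23.4 and 14.9 FPKM in galactose (2.54 ± 0.33, adjusted p = 2.38e-06). These 3 genes were higher at each later time and were the members also called with equal sums. HSP12, for a membrane-associated small stress protein, had 3823, 5319 and 4316 FPKM in late glucose, against 1759 and 1784 FPKM in galactose (1.33 ± 0.48, adjusted p = 0.0268), without a call with equal sums (0.55) or without 60 min or either galactose library (adjusted p = 0.0826 to 0.111). CTT1, for cytosolic catalase, had 70, 82.4 and 89.8 FPKM in late glucose, against 44.2 and 39.6 FPKM in galactose (0.93 ± 0.41, adjusted p = 0.0684).

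The promoters of HSP26 and SPI1 are shown as 2 called stress genes whose windows hold AGGGG, the letters of the stress response element that the Msn2 and Msn4 activators bind. Each is the stretch from 400 to 101 bases before the start codon on the RefSeq R64 assembly, which is sacCer3, given from 5′ to 3′ on the strand of the gene, with AGGGG or its reverse complement CCCCT in capitals.
HSP26 promoter, chrII:381630-381929, forward strand: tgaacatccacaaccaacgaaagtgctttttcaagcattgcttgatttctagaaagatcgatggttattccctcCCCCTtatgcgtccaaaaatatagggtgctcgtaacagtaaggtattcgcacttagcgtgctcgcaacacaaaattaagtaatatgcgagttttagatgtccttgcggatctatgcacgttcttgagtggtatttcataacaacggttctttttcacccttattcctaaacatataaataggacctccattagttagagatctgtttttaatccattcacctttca
SPI1 promoter, chrV:467970-468269, forward strand: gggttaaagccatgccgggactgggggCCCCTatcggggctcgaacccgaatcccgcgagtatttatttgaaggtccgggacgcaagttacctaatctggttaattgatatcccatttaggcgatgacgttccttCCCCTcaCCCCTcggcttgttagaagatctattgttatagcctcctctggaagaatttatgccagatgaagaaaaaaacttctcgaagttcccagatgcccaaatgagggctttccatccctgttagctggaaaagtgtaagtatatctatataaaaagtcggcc
The HSP26 window held 1 match and the SPI1 window 3. On either strand AGGGG stood in 1366 of 5710 such windows (23.92%), in 25 of the 28 general stress genes (89.29%), in 123 of 414 genes called higher late (29.71%) and in 80 of 451 called lower (17.74%). The GRE1 window held none, and the ALD3 window held 2. The list was compiled from genes known as stress responsive, and the motif was chosen with the changes known, so these shares are a description.

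Chaperones moved in both directions. Of 26 members 4 were higher and 3 lower (with equal sums 2 were higher and 7 lower). Chaperone calls (higher and lower) became 4 and 1 without the glucose course's galactose library. HSP30, for a plasma membrane protein that restrains the proton pump, had 23.3, 45.2 and 112 FPKM in late glucose, against 14.1 and 13.6 FPKM in galactose (1.76 ± 0.34, adjusted p = 0.000193). MDJ1, for a mitochondrial co-chaperone, had 30.4, 32.1 and 47.3 FPKM in late glucose, against 119 and 102 FPKM in galactose (-1.59 ± 0.42, adjusted p = 0.00339). HSP30 lost its call in a fit of only the 5 libraries compared. Of these 3 members of the list, HSP26 acts in the cytosol, HSP30 in the plasma membrane and MDJ1 in mitochondria. Whether compartment and direction went together over the list was not tested. Among 20 oxidative stress and redox genes 6 were higher and 0 lower, but with equal sums 0 were higher and 2 lower. The redox median was then -0.20, beside -0.76 over all tested genes, of which 35.3% were lower. Redox gene calls (higher and lower) became 3 and 0 without 30 min, and 2 and 0 without 60 min. TRX2, for a thioredoxin, had 2339, 2963 and 1904 FPKM in late glucose, against 737 and 708 FPKM in galactose (1.71 ± 0.24, adjusted p = 8.37e-06). TSA2, for a peroxiredoxin, had 47.6, 49 and 76.3 FPKM in late glucose, against 20.8 and 26.3 FPKM in galactose (1.23 ± 0.20, adjusted p = 3.02e-05). AHP1, for another peroxiredoxin, had 5727, 6067 and 3478 FPKM in late glucose, against 2839 and 1653 FPKM in galactose (1.19 ± 0.40, adjusted p = 0.0182), and lost its call without 30 min, 60 min or the fructose course's galactose library (adjusted p = 0.0542 to 0.232). None of these 3 was called with equal sums (0.94, 0.48 and 0.42).

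Cytosolic ribosomal protein genes were higher in part of the family as deposited and had few calls with equal sums. Of 137 members 41 were higher and 1 lower (median 0.62), but with equal sums 5 were higher and 11 lower (median -0.15, beside -0.76 over all tested genes, of which 1.14% were higher and 35.3% lower). The 118 members of at least 300 bp took 31.7, 30.9 and 28.5% of summed FPKM in late glucose, against 27.5 and 27% in galactose. With annotated genes of any length in both the family and the sum, the 137 took 37.4, 32.3 and 46.1% in late glucose, against 32.1 and 28.1% in galactose. Ribosomal protein calls (higher and lower) became 31 and 3 without 30 min. The medians at 30, 60 and 120 min were 0.96, 0.76 and 0.12. RPL3, for a large-subunit protein with no paralog, had 9836, 16003 and 13655 FPKM in late glucose, against 3067 and 2787 FPKM in galactose (2.14 ± 0.25, adjusted p = 8.68e-07). The paralogs RPL4A and RPL4B, whose reads could be shared, had 10778, 15357 and 11376 FPKM in late glucose, against 2596 and 2439 FPKM in galactose for RPL4A, and 4553, 5499.9 and 3257 FPKM in late glucose, against 1113 and 1072 FPKM in galactose for RPL4B (1.99 ± 0.23). RPL3, RPL4A and RPL4B were called with equal sums too (1.37, 1.52 and 1.22).

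Among 8 elongation factor genes 4 were higher and 0 lower. TEF2 had 4814, 5987 and 3340.0 FPKM in late glucose, against 1617 and 1515 FPKM in galactose (1.55 ± 0.23, adjusted p = 1.49e-05) and its identical-protein partner TEF1 2087, 1923 and 1088 FPKM in late glucose, against 831 and 822 FPKM in galactose (0.98 ± 0.27, adjusted p = 0.00448, under 2-fold). Reads of TEF1 and TEF2 could be shared, so a call for only 1 of them does not separate the genes. EFT1, for elongation factor EF-2, had 690.4, 772 and 457 FPKM in late glucose, against 221 and 201 FPKM in galactose (1.56 ± 0.21, adjusted p = 5.05e-06), and CAM1, for a subunit of EF-1B, had 1227, 1787 and 1198 FPKM in late glucose, against 416 and 410.2 FPKM in galactose (1.74 ± 0.19, adjusted p = 4.01e-07). With equal sums TEF2, EFT1 and CAM1 were not called (0.78, 0.79 and 0.97). Ribosome biogenesis gave 1 higher and 3 lower of 60 (median -0.03), and with equal sums 0 were higher and 21 lower. UTP15, for a processing factor of the small subunit, had 6.77, 12.8 and 14.1 FPKM in late glucose, against 43.9 and 42.8 FPKM in galactose (-1.92 ± 0.32, adjusted p = 4.07e-05). NSR1, for a nucleolar protein, had 99, 86.1 and 69 FPKM in late glucose, against 170.5 and 185 FPKM in galactose (-1.08 ± 0.34, adjusted p = 0.0113); it was not called without the fructose course's galactose library (adjusted p = 0.0749) and was under 2-fold without 120 min. Ribosome biogenesis calls (higher and lower) became 2 and 1 without the fructose course's galactose library, 0 and 5 without the glucose course's galactose library, 2 and 4 without 120 min, 2 and 3 without 30 min, and 0 and 2 without 60 min.

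**Figure D3:**
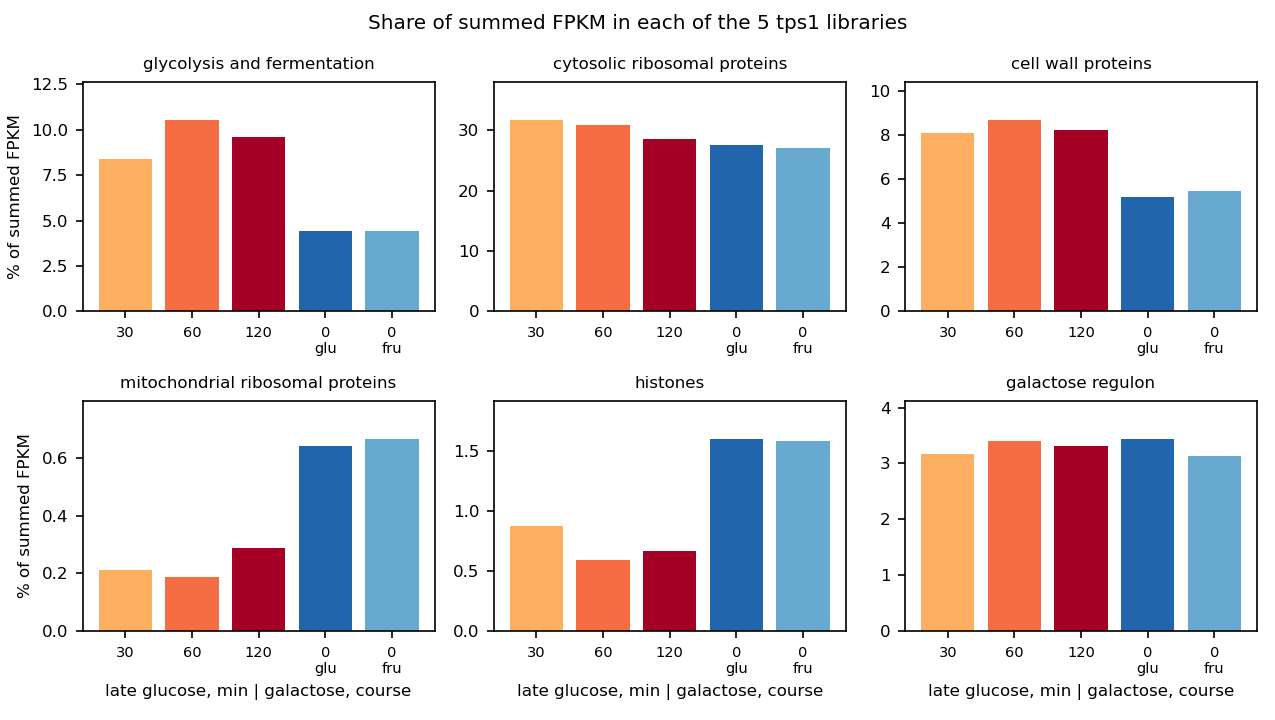
Percentage of summed FPKM (annotated genes of at least 300 bp) taken by 6 gene lists in the late glucose libraries at 30, 60 and 120 min and in the galactose libraries of the glucose and fructose courses. Glycolysis and cell wall proteins, the second mostly CCW12, take a larger share in every late library, mitochondrial ribosomal proteins and histones a smaller one, and the galactose regulon about the same; each vertical axis starts at 0 and has its own range.

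Mitochondrial ribosomal protein genes were often lower in both scalings. Of 66 members 28 were lower and 0 higher (median -0.96), and with equal sums 0 were higher and 60 lower (median -1.72). Over all tested genes 7.85% were lower as deposited and 35.3% with equal sums. The list took 0.21, 0.187 and 0.29% of summed FPKM in late glucose, against 0.643 and 0.666% in galactose. MRPS8, of the small subunit, had 18, 20.1 and 40.1 FPKM in late glucose, against 84.8 and 81.9 FPKM in galactose (-1.73 ± 0.35, adjusted p = 0.000341), and MRPL19, of the large subunit, which overlaps YNL184C along 113 bp of the same strand, had 48.9, 41.2 and 48.4 FPKM in late glucose, against 182 and 142 FPKM in galactose (-1.78 ± 0.29, adjusted p = 3.84e-05). Of the respiratory chain and ATP synthase genes 2 of 31 were lower and 0 higher (median 0.13), with 10 lower with equal sums. Respiratory chain calls (higher and lower) became 0 and 1 without the fructose course's galactose library or without 60 min, and 2 and 1 without 120 min. NDI1, for the internal NADH dehydrogenase that yeast uses in place of complex I, had 99.5, 119.6 and 141 FPKM in late glucose, against 381 and 335 FPKM in galactose (-1.58 ± 0.38, adjusted p = 0.00161). In the tricarboxylic acid cycle, 1 of 15 was lower, and 4 with equal sums: ACO1, for aconitase, had 164, 114 and 171 FPKM in late glucose, against 447 and 464 FPKM in galactose (-1.62 ± 0.42, adjusted p = 0.00309). Calls of that cycle (higher and lower) became 2 and 1 without 120 min. COX10 had 4.03, 8 and 14.1 FPKM in late glucose, against 40.2 and 35.2 FPKM in galactose, and COQ2 had 16.5, 27.1 and 43.3 FPKM in late glucose, against 126 and 120.0 FPKM in galactose.

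Part of the cell cycle genes were lower. Of 21 mitotic genes, expressed from G2 to early G1, 9 were lower and 0 higher (median -0.89). Of 20 G1 and S phase genes 5 were lower and 0 higher (median -0.58). With equal sums these counts were 16 and 16 lower, beside 35.3% lower over all tested genes. Without 30 min, 5 of the mitotic genes were lower. CLB2, for the main mitotic cyclin, had 8.59, 6.61 and 9.71 FPKM in late glucose, against 32.2 and 37.8 FPKM in galactose (-1.96 ± 0.27, adjusted p = 6.16e-06), and CLB1, its partner, had 7.88, 10.1 and 11.7 FPKM in late glucose, against 29.6 and 31.4 FPKM in galactose (-1.55 ± 0.28, adjusted p = 0.000109). SWI5, for the factor that drives late mitotic transcription, had 12.5, 10.1 and 11.5 FPKM in late glucose, against 36.7 and 36.3 FPKM in galactose (-1.61 ± 0.24, adjusted p = 1.41e-05). In all 3 every late value lay below both galactose values. CLN1, a G1 cyclin gene, had 16.4, 30.4 and 50.9 FPKM in late glucose, against 84.2 and 80.4 FPKM in galactose (-1.45 ± 0.33, adjusted p = 0.00111). PCL1 and CLN1 both stood higher at each later time, and both lost their call in a fit of only the 5 libraries compared. MCM7, for a subunit of the replicative helicase, had 17, 17.8 and 14.7 FPKM in late glucose, against 41 and 38.5 FPKM in galactose (-1.22 ± 0.18, adjusted p = 1.12e-05), and RNR1, for ribonucleotide reductase, had 117, 107 and 138 FPKM in late glucose, against 184 and 176 FPKM in galactose (-0.58 ± 0.18, adjusted p = 0.0112, under 2-fold; with equal sums it was called lower, at -1.35).

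Histone genes took 0.874, 0.592 and 0.669% of summed FPKM in late glucose, against 1.6 and 1.59% in galactose. HTB1, for histone H2B, had 728, 451 and 627 FPKM in late glucose, against 1510.1 and 1327 FPKM in galactose (-1.26 ± 0.20, adjusted p = 2.81e-05). HHF2, for histone H4, had 1381, 915 and 1153 FPKM in late glucose, against 2399 and 2364 FPKM in galactose (-1.07 ± 0.18, adjusted p = 4.79e-05), and was under 2-fold without 60 min. HTA1, for H2A, had 1317, 1016 and 1026 FPKM in late glucose, against 1547 and 1398 FPKM in galactose (-0.40 ± 0.19, adjusted p = 0.0807), and was called lower with equal sums (-1.18, adjusted p = 7.87e-06). Of 10 histone genes 2 were lower and 0 higher, with 5 lower with equal sums. Without 60 min 1 was lower. The paired copies of each histone gene could share reads.

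Nitrogen uptake and assimilation genes were more often lower than higher. Of 15 members 5 were lower and 1 higher. With equal sums 0 were higher and 7 lower, beside 35.3% lower over all tested genes. Nitrogen gene calls (higher and lower) became 2 and 5 without 120 min. GAP1, for the general amino acid permease, had 95.7, 70 and 62.6 FPKM in late glucose, against 312 and 235 FPKM in galactose (-1.84 ± 0.24, adjusted p = 2.45e-06). GLN1, for glutamine synthetase, had 234, 223 and 249 FPKM in late glucose, against 857 and 719 FPKM in galactose (-1.73 ± 0.26, adjusted p = 1.13e-05). Every late value of both lay below both galactose values, as for MEP2, and GAP1 was lowest at 120 min. The MEP2 promoter window is shown because MEP2 had the largest called decrease and because genes of this list are known targets of GATA factors such as Gln3 and Gat1, which recognise GATAAG; its letters and their reverse complement CTTATC are in capitals.
MEP2 promoter, chrXIV:357053-357352, forward strand: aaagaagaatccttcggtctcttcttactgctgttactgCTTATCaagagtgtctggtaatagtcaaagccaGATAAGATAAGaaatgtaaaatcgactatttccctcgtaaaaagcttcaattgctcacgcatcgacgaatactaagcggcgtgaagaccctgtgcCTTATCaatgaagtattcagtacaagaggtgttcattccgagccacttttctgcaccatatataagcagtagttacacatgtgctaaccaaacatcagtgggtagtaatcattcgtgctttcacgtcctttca
The window held 4 matches, 2 of them overlapping by 1 letter. GATAAG stood in 801 of 5710 windows (14.03%), in 11 of the 15 nitrogen genes (73.33%), in 62 of 414 genes called higher (14.98%) and in 65 of 451 called lower (14.41%). The GAP1 window held 3 matches.

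Iron, amino acid and other biosynthetic genes gave smaller groups of calls. In the iron regulon 4 of 20 were lower and 0 higher (10 lower with equal sums). Iron gene calls (higher and lower) became 1 and 4 without 30 min. FET3, for the multicopper oxidase that works with Ftr1, had 175, 129 and 157 FPKM in late glucose, against 365 and 497 FPKM in galactose (-1.48 ± 0.20, adjusted p = 4.88e-06), and ISU2, for an iron-sulfur scaffold, had 38, 30.2 and 45.9 FPKM in late glucose, against 117 and 154 FPKM in galactose (-1.81 ± 0.36, adjusted p = 0.00024). Branched-chain synthesis split: ILV6, for the regulatory subunit of acetolactate synthase, had 2758, 3123 and 1802 FPKM in late glucose, against 782 and 746 FPKM in galactose (1.71 ± 0.21, adjusted p = 1.67e-06), opposite to ILV5. The 2 calls of that list (higher and lower) became 1 and 2 without the fructose course's galactose library or without 30 min. Among 33 other amino acid genes 8 were higher and 1 lower. With equal sums 0 were higher and 9 lower, beside 35.3% lower over all tested genes. These calls (higher and lower) became 8 and 0 without the glucose course's galactose library, and 6 and 0 without 60 min. ARO4, for the entry enzyme of aromatic amino acid synthesis, had 1797, 2224 and 1324 FPKM in late glucose, against 608 and 546 FPKM in galactose (1.60 ± 0.20, adjusted p = 1.93e-06). HIS3 had 993, 1350.2 and 1039 FPKM in late glucose, against 385 and 387 FPKM in galactose (1.53 ± 0.18) and TRP5 595, 676 and 359 FPKM in late glucose, against 209.7 and 201 FPKM in galactose (1.35 ± 0.22). With equal sums ILV6, ARO4, HIS3 and TRP5 were not called (0.93, 0.82, 0.76 and 0.58).

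In sulfur metabolism 2 genes were higher and 2 lower of 20, and with equal sums 0 were higher and 9 lower. Sulfur gene calls (higher and lower) became 1 and 0 without the fructose course's galactose library or without 30 min, 2 and 0 without the glucose course's galactose library, and 1 and 1 without 60 min. CYS3, for cystathionine gamma-lyase, had 2507, 2423 and 1222 FPKM in late glucose, against 823 and 766 FPKM in galactose (1.30 ± 0.27, adjusted p = 0.000422, 0.52 and not called with equal sums). MET28, for an activator of sulfur genes, had 32, 51.8 and 86.3 FPKM in late glucose, against 161 and 168 FPKM in galactose (-1.63 ± 0.52, adjusted p = 0.0132), and SUL2, for a sulfate permease, had 50.1, 58.4 and 82.9 FPKM in late glucose, against 154 and 142 FPKM in galactose (-1.23 ± 0.42, adjusted p = 0.0202). MET28 lost its call without 30 min or either galactose library (adjusted p = 0.0646 to 0.0706), and SUL2 without any 1 library other than 120 min (adjusted p = 0.053 to 0.108). The purine gene ADE1 had 1025, 1319 and 1077 FPKM in late glucose, against 440.4 and 529 FPKM in galactose (1.23 ± 0.25, adjusted p = 0.000389), and the sterol gene ERG27 had 372, 429 and 295 FPKM in late glucose, against 134 and 136 FPKM in galactose (1.41 ± 0.17, adjusted p = 8.01e-07); neither was called with equal sums (0.46 and 0.64). PHO8, for the vacuolar alkaline phosphatase, had 24.5, 23.1 and 32.6 FPKM in late glucose, against 63.2 and 57.2 FPKM in galactose (-1.16 ± 0.17, adjusted p = 1.58e-05). PHO84, for the high-affinity phosphate transporter, had 15.5, 18.3 and 22.5 FPKM in late glucose, against 23.1 and 17 FPKM in galactose (-0.09 ± 0.21, adjusted p = 0.757), and overlaps an antisense RNA gene along 1764 bp.

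Regulators of the RAS and protein kinase A pathway changed in both directions. Of 14 genes 3 were higher and 3 lower, and with equal sums 1 was higher and 7 lower. IRA2, for a GTPase-activating protein that switches Ras off, had 17.5, 29.8 and 35.8 FPKM in late glucose, against 7.3 and 6 FPKM in galactose (1.86 ± 0.19, adjusted p = 1.5e-07) and was the member still higher with equal sums (1.15). PDE2, for the high-affinity cyclic AMP phosphodiesterase, had 3.6, 7.38 and 11.4 FPKM in late glucose, against 29.1 and 26.3 FPKM in galactose (-1.87 ± 0.53, adjusted p = 0.00562). GPR1, for the G protein-coupled receptor that senses glucose, had 5.15, 7.26 and 12.4 FPKM in late glucose, against 20.5 and 18.2 FPKM in galactose (-1.21 ± 0.24, adjusted p = 0.000239), under 2-fold without 30 min. The higher gene, IRA2, and the lower gene PDE2 both encode proteins known to restrain the pathway.

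Proteasome and cell wall genes had higher calls that depended on the scaling. Of 32 proteasome genes 6 were higher and 0 lower, but with equal sums 0 were higher and 6 lower. The proteasome median was then -0.37, beside -0.76 over all tested genes, of which 35.3% were lower. PRE2, for a catalytic subunit of the core particle, had 782, 1149.7 and 992 FPKM in late glucose, against 285 and 285 FPKM in galactose (1.75 ± 0.22, adjusted p = 1.69e-06; 0.98 with equal sums, not called). Of 14 cell wall genes 3 were higher and 0 lower, but with equal sums 0 were higher and 3 lower (median then -0.55). CCW12 had 127521, 147164 and 97563 FPKM in late glucose, against 38348 and 39535 FPKM in galactose (1.65 ± 0.19, adjusted p = 6.66e-07). PIR3, for a covalently linked wall protein, had 52.7, 93.2 and 136 FPKM in late glucose, against 32.3 and 21.1 FPKM in galactose (1.71 ± 0.25, adjusted p = 1.16e-05), and YGP1, for a secreted glycoprotein of starved cells, had 531, 534 and 402 FPKM in late glucose, against 208 and 138 FPKM in galactose (1.51 ± 0.40, adjusted p = 0.0032, and 0.0656 without the fructose course's galactose library). The other 12 cell wall genes of at least 300 bp took 0.969, 0.718 and 0.842% of summed FPKM in late glucose, against 1.28 and 1.24% in galactose, so that the larger share of the list lay in CCW12. With equal sums CCW12, PIR3 and YGP1 were not called (0.88, 0.95 and 0.74). ATG5, for a protein of autophagosome formation, had 117, 150.3 and 174 FPKM in late glucose, against 65.5 and 59.1 FPKM in galactose (1.21 ± 0.20, adjusted p = 4.13e-05; 0.45 with equal sums, not called).

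The 120 min library stood partly apart from 30 and 60 min. It differed at least 2-fold from 30 min at 759 genes (12.2%) and from 60 min at 346 (5.58%), against 240 (3.87%) between 30 and 60 min. With the 120 min library as a group of its own, assumed to vary like the other groups, 175 genes (2.82%) were called: 111 higher (1.79%) and 64 lower (1.03%) at 120 min than at 30 and 60 min. Without 30 min the count was 39 and without 60 min 388, and at an unadjusted p under 0.05 there were 1822 genes. With equal sums 600 were called (9.67%), 593 higher (9.56%) and 7 lower (0.113%), and the median gene then differed by 0.46 beside 0.03 as deposited. Without a test, 139 genes (2.24%) lay at least 2-fold above both earlier values and 61 (0.983%) at least 2-fold below both.

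The genes higher at 120 min were mostly of low level and those lower at 120 min mostly of high level. The median of their mean FPKM over all libraries was 14.5 and 1237. Of the 111 higher genes, 86 were not called in late glucose against galactose, 10 were higher and 15 lower there. Their median differences from galactose were -0.85, -0.57 and 0.66 at 30, 60 and 120 min, and those of the 64 lower genes were 1.01, 0.62 and -0.40. Of the 487 genes lower in late glucose, 383 were nearer galactose at 120 min than at both 30 and 60 min, with medians of -1.49, -1.38 and -0.97, and 437, 446 and 224 of them were at least 2-fold below galactose. Of the 464 higher genes, 368, 456 and 309 were at least 2-fold above galactose, with medians of 1.27, 1.49 and 1.22. At 120 min 230 of the 464 were nearer galactose than at both earlier times, and 108 were farther. Among the 487 lower genes 30 were farther. These counts were not made over all tested genes.

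Stress genes were among those higher at 120 min. HSP30 had 112 FPKM at 120 min, against 23.3 and 45.2 FPKM at 30 and 60 min (1.75 ± 0.30, adjusted p = 0.00159). GRE1 had 214 FPKM at 120 min, against 67.7 and 101 FPKM at 30 and 60 min (1.36 ± 0.35, adjusted p = 0.0161), SPI1 544 FPKM at 120 min, against 198 and 330.2 FPKM at 30 and 60 min (1.09 ± 0.27, adjusted p = 0.0127), and ALD3 132 FPKM at 120 min, against 43.3 and 71.2 FPKM at 30 and 60 min (1.23 ± 0.35, adjusted p = 0.0253). HSP26 had 489 FPKM at 120 min, against 62.6 and 164 FPKM at 30 and 60 min, which was not called (2.26 ± 0.85, adjusted p = 0.0834). In the general stress list 3 of 28 were higher at 120 min, 8 with equal sums and 0 without 30 min. BTN2, for a protein that gathers misfolded proteins into deposits, had 112 FPKM at 120 min, against 15.7 and 35.8 FPKM at 30 and 60 min (2.18 ± 0.64, adjusted p = 0.0296), and its galactose values of 15.8 and 17.4 FPKM were close to that at 30 min. RDS3, for a spliceosome subunit, had 63.9 FPKM at 120 min, against 19 and 14.4 FPKM at 30 and 60 min (1.89 ± 0.35, adjusted p = 0.00268). HLR1 had 10.4 FPKM at 120 min, against 1.12 and 4.22 FPKM at 30 and 60 min (1.78 ± 0.46) and 23.6 and 19.9 FPKM in galactose, and like the cyclin gene PCL1 (1.57 ± 0.47) was nearest its galactose level at 120 min.

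The BTN2 promoter window is shown because BTN2 was called at 120 min and its window matches the heat shock element, the repeated unit that the heat shock factor Hsf1 binds. Capitals mark 2 overlapping matches to GAANNTTCNNGAA, in which N is any base, on either strand.
BTN2 promoter, chrVII:772054-772353, forward strand: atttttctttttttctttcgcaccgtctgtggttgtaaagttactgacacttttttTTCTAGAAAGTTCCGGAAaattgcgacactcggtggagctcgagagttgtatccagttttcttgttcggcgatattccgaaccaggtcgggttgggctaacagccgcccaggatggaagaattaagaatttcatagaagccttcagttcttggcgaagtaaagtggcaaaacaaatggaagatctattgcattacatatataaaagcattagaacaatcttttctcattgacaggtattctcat
These letters stood in 63 of 5710 windows (1.103%), in 13 of the 26 chaperone genes (50%), and in 2 of 106 genes called higher at 120 min (1.887%). The windows of HSP26 and HSP30 held none.

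Several of the highest calls at 120 min rested on low values. HHY1 had 20.7 FPKM at 120 min, against 0 and 3.2 FPKM at 30 and 60 min (3.41 ± 0.92, adjusted p = 0.0191). MND1, a meiotic recombination gene, had 8.73 FPKM at 120 min, against 0 and 1.81 FPKM at 30 and 60 min (2.54 ± 0.66, adjusted p = 0.0162), and SPS1, for a sporulation kinase, had 3.29 FPKM at 120 min, against 0.269 and 0.17 FPKM at 30 and 60 min (1.82 ± 0.45, adjusted p = 0.0133). HSP33 had 3.77 FPKM at 120 min, against 0.325 and 0 FPKM at 30 and 60 min (2.05 ± 0.62, adjusted p = 0.0329). AQY2, for an aquaporin, had 17.1 FPKM at 120 min, against 1.92 and 5.55 FPKM at 30 and 60 min (2.05 ± 0.64, adjusted p = 0.0401), and overlaps YLL053C along 50 bp. IRC23 had 23 FPKM at 120 min, against 4.7 and 6.57 FPKM at 30 and 60 min (1.87 ± 0.54, adjusted p = 0.0262). In the other direction SPG3 was listed at 0 at 120 min, with 5.9 and 5.19 FPKM at 30 and 60 min (-2.71 ± 0.70, adjusted p = 0.0158). For HHY1, MND1, HSP33, SPS1 and SPG3 a log2 difference depends on the pseudocount, and with a pseudocount of 5 AQY2, HSP33, SPS1 and SPG3 were not called.

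The other genes named as lower at 120 min were abundant ones of translation, sulfur metabolism and the cell wall. SCW4, for a cell wall glucanase, had 561 FPKM at 120 min, against 1628 and 1338 FPKM at 30 and 60 min (-1.39 ± 0.21, adjusted p = 0.000996). RPS0B had 2049.9 FPKM at 120 min, against 5844 and 4243 FPKM at 30 and 60 min (-1.28 ± 0.23, adjusted p = 0.00255), and RPS11A 1553 FPKM at 120 min, against 4523 and 2949 FPKM at 30 and 60 min (-1.23 ± 0.26, adjusted p = 0.00421). Of 137 cytosolic ribosomal protein genes 13 were lower and 0 higher (median -0.67), but 1 was higher and 0 lower with equal sums, and the 13 became 2 without 30 min and 33 without 60 min. SAM1, for an S-adenosylmethionine synthetase, had 928 FPKM at 120 min, against 2463 and 2147 FPKM at 30 and 60 min (-1.31 ± 0.34, adjusted p = 0.0165), SAH1, for S-adenosylhomocysteine hydrolase, 757 FPKM at 120 min, against 2093 and 1438 FPKM at 30 and 60 min (-1.19 ± 0.22, adjusted p = 0.00285), and CYS3 1222 FPKM at 120 min, against 2507 and 2423 FPKM at 30 and 60 min (-1.01 ± 0.30, adjusted p = 0.0329). TIP1, for a cell wall mannoprotein, had 206 FPKM at 120 min, against 653 and 362 FPKM at 30 and 60 min (-1.23 ± 0.27, adjusted p = 0.00664), and PRY1, for a secreted sterol-binding protein, 249.5 FPKM at 120 min, against 774 and 447 FPKM at 30 and 60 min (-1.23 ± 0.28, adjusted p = 0.0068). With equal sums none of these 8 genes was called. Without 30 min, 19 of the 23 called genes named for 120 min lost their call, all but RDS3, SCW4, RPS0B and HSP30.

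**Figure D4:**
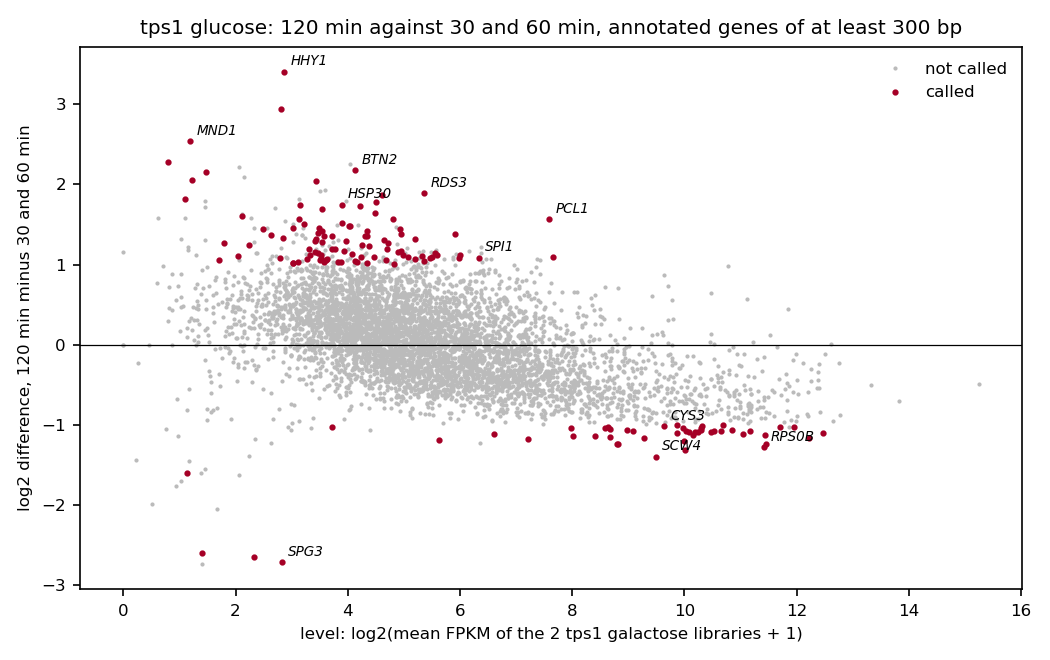
Log2 difference between 120 min and the mean of 30 and 60 min of glucose in tps1 against the level in galactose (log2 of the mean FPKM of the 2 galactose libraries + 1), 1 point for each annotated gene of at least 300 bp, with called genes in red. Most called genes above 0 lie at low levels, with exceptions such as PCL1 (mean of 191 FPKM in galactose). Most of those below 0 lie at high levels.

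Few genes were called between late glucose and late fructose in tps1, several stress genes among them. Of 6203 genes 172 (2.77%) were called, 105 higher (1.69%) and 67 lower (1.08%) in late glucose than in late fructose. At an unadjusted p under 0.05 in limma there were 2185. With equal sums there were 168 (2.71%), 138 higher (2.22%) and 30 lower (0.484%). The count was 88 without the 120 min glucose library and 373 without the 30 min one. The fructose libraries were cultures given 2% fructose, and the one at 60 min was the shallowest of the series at 3.35 M fragments. Of the 80 genes named above and called against galactose, 10 also differed between the sugars. The choice of the 80 used the same late glucose libraries. GRE1 had 67.7, 101 and 214 FPKM in late glucose and 21.1, 22 and 22.3 FPKM in late fructose (2.33 ± 0.29, adjusted p = 3.65e-05). SPI1 had 198, 330.2 and 544 FPKM in late glucose and 91.5, 97.5 and 112 FPKM in late fructose (1.71 ± 0.23, adjusted p = 5.79e-05). HSP26 had 62.6, 164 and 489 FPKM in late glucose and 22.5, 39.9 and 32.6 FPKM in late fructose (2.44 ± 0.63, adjusted p = 0.0079, and 0.0902 without 120 min of glucose). In each the lowest glucose value exceeded the highest fructose value. IRA2 had 17.5, 29.8 and 35.8 FPKM in late glucose and 9.81, 8.78 and 11.2 FPKM in late fructose (1.34 ± 0.17, adjusted p = 3.65e-05). FET3 had 175, 129 and 157 FPKM in late glucose and 461, 374 and 353 FPKM in late fructose (-1.36 ± 0.18, adjusted p = 5.79e-05). GAL1 (difference 0.01 ± 0.48, adjusted p = 0.994) and TDH3 (0.05 ± 0.23, adjusted p = 0.902) did not pass the test. In the general stress list 7 of 28 were higher in late glucose and 0 lower.

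The late glucose change differed between the strains at many genes. The difference between the change in tps1 and the change in WT, tested as an interaction, was called for 1046 genes (16.9%), 546 in the higher direction (8.8%) and 500 in the lower (8.06%); with equal sums it was 1834 (29.6%), 179 higher (2.89%) and 1655 lower (26.7%). GAL1 had 28885, 34094 and 22130.2 FPKM in tps1 late glucose and 10515 and 9966 FPKM in tps1 galactose, and in WT 1181, 1973 and 1548 FPKM in late glucose and 10387 and 9338 FPKM in galactose. Late values lay above galactose in tps1 and below it in WT, and the changes differed by 4.13 ± 0.75 (adjusted p = 0.000371). GAL10 gave 3.59 ± 0.49, and GAL2 gave 2.81 ± 0.95 and was not called with equal sums (2.21). HXT1 had 4.32, 6.32 and 8.66 FPKM in tps1 late glucose and 3.09 and 3.47 FPKM in tps1 galactose, and in WT 386, 409.7 and 505 FPKM in late glucose and 4.89 and 5.92 FPKM in galactose (-5.32 ± 1.79, adjusted p = 0.0264). HXT1 was not called without any 1 galactose library of either strain (adjusted p = 0.0633 to 0.0775). HXT3 had 200.1, 472 and 533 FPKM in WT late glucose and 11.2 and 9.28 FPKM in WT galactose, and its change differed by -4.42 ± 1.16 (adjusted p = 0.00614).

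The permease genes MEP2 and GAP1 lay below galactose in late glucose in tps1 and above it in WT. MEP2 had 159, 125 and 175 FPKM in tps1 late glucose and 975 and 689 FPKM in tps1 galactose, and in WT 2252, 2549.8 and 2912 FPKM in late glucose and 1627 and 1566 FPKM in galactose (-3.11 ± 0.42, adjusted p = 4.25e-05). GAP1 had 875, 1009 and 1277 FPKM in WT late glucose and 453 and 411 FPKM in WT galactose, and its change differed by -3.11 ± 0.34. The stress gene HSP26 had 7.93, 12.1 and 23.6 FPKM in WT late glucose and 36 and 21.9 FPKM in WT galactose (difference of changes 4.45 ± 0.99, adjusted p = 0.00186). In the general stress list 19 of 28 genes had a more positive change in tps1 and 0 a more negative one, with a median difference of 2.33 beside -0.04 over all tested genes (13 and 0 with equal sums, median 1.72 beside -0.62). The same counts were 6 and 0 of 7 in the galactose regulon, 0 and 6 of 14 in hexose transport and sensing, 6 and 0 of 21 in glycolysis, and 0 and 10 of 21 among the mitotic genes. With equal sums these 4 lists had 3 and 0, 0 and 9, 4 and 3, and 0 and 17. Of the 80 genes named above and called in late tps1 glucose, 63 had a change that differed from that in WT. These 80 were called on the tps1 change, which is part of this difference. Their share is thus expected to exceed the 16.9% over all tested genes. Of 66 mitochondrial ribosomal protein genes 2 had a more positive change in tps1 and 0 a more negative one as deposited, and 0 and 24 with equal sums.

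**Figure D5:**
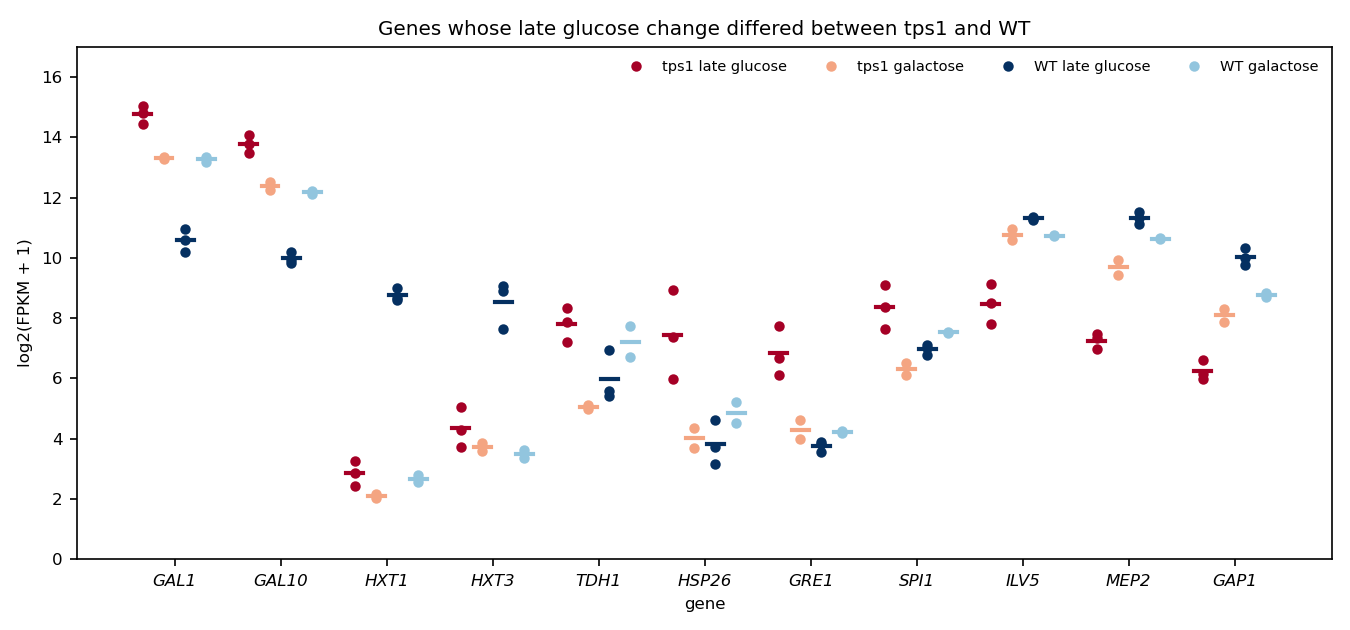
Level, as log2(FPKM + 1), of 11 genes in tps1 late glucose, tps1 galactose, WT late glucose and WT galactose; each point is 1 library (3 late, 2 galactose) and the short line is the group mean. GAL1 and GAL10 stay high in tps1 late glucose while they are low in WT late glucose, HXT1 and HXT3 do the opposite, and MEP2 and GAP1 lie below galactose in tps1 and above it in WT.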

How the data were processed

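RNA was sequenced from 32 libraries of 2 yeast strains, and 5 of them form the comparison described here. The authors deposited 1 table of FPKM for 6717 entries, made with CASAVA 1.4, TopHat2 and Cuffnorm on the sacCer3 build per the submitters' processing notes. Versions of TopHat2 and Cuffnorm, the normalization setting of Cuffnorm, and whether strand was used in counting are not given in the sources used here. FPKM carries no fragment counts. The depth was estimated from the steps between low FPKM values, of which 92.0% of 1393 lay within 0.1 of a whole fragment, and is 3.35 to 7.95 M fragments (M as the SI prefix mega) over the 32 libraries. It limits the precision at low values.

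Values were tested as log2(FPKM + 1) for 6203 genes, those averaging 1 FPKM or more across the 32 libraries, with limma 3.58.1 in R 4.3.3. The fit had 10 groups of libraries by strain, sugar and period over all 32 libraries, so that the spread is shared, with a prior variance that follows the level of a gene (trended) and p-values adjusted by Benjamini and Hochberg. A call is an adjusted p under 0.05 and a difference of at least 2-fold. The 120 min library was tested as a group of 1 that is assumed to vary like the other groups. The p-values measure only the spread between these libraries, which are serial samples. Differences with equal sums divide each library by its FPKM sum over annotated genes of at least 300 bp. Of the 6717 entries 6025 matched the RefSeq R64 annotation, which is the sacCer3 sequence, and 692 did not. Promoters were read from that assembly. The fit was tested on simulated data with independent noise in each library, which does not reproduce serial samples of 1 culture. Python 3.11.15 with matplotlib 3.10.9, numpy 2.4.6 and pandas 2.3.3 made the tables and figures.

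The genes named are TPS1, the 10 highest and 10 lowest calls of the late comparison and the 8 highest and 8 lowest at 120 min (annotated, at least 300 bp, with a standard name), from each of 36 gene lists at most 3 called members, taken by size of difference, and a set of marker genes. The 10 highest and 10 lowest calls were also limited to genes with all 3 late values outside the range of both galactose values. The members, lists and motifs were chosen with earlier results of these data known. Alternatives changed the pseudocount, the filter, the scaling, the prior variance, the genes tested, the baseline, the matching by time and the libraries included.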

Additional observations from a re-analysis of the deposited data

Results flagged for a closer look

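The following differences between groups passed the test of the difference itself, in limma with Benjamini-Hochberg adjustment over 6203 genes and with no test of any cause. Between late tps1 glucose and late tps1 fructose, 10 of the 80 named genes differed (log2, glucose minus fructose, with standard error). Over all tested genes 2.77% were called. The choice of the 80 used the same late glucose libraries. The stress genes were HSP26 (2.44 ± 0.63, adjusted p = 0.0079), GRE1 (2.33 ± 0.29, adjusted p = 3.65e-05), SPI1 (1.71 ± 0.23, adjusted p = 5.79e-05), ALD3 (1.50 ± 0.28, adjusted p = 0.000794) and HSP30 (1.42 ± 0.30, adjusted p = 0.00214). The others that were higher in glucose were the transporter gene HXT2 (1.69 ± 0.48, adjusted p = 0.0147), the wall protein gene PIR3 (1.58 ± 0.23, adjusted p = 8.29e-05) and the Ras regulator gene IRA2 (1.34 ± 0.17, adjusted p = 3.65e-05). The iron uptake genes FTR1 (-1.31 ± 0.25, adjusted p = 0.0009) and FET3 (-1.36 ± 0.18, adjusted p = 5.79e-05) were lower in glucose. Without the 120 min glucose library HSP26 and HXT2 lost their calls (adjusted p = 0.0902 and 0.127) and HSP30 was under 2-fold (0.84), and HXT2 lost its call also without the 60 min fructose library (adjusted p = 0.0556).

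The late glucose change in tps1 differed from that in WT for 63 of the 80 named genes, beside 16.9% over all tested genes. These 80 were called on the tps1 change, which is part of this difference. The 12 largest differences among the named genes are given (log2, tps1 change minus WT change). The change was more positive in tps1 for HSP26 (4.45 ± 0.99, adjusted p = 0.00186), GAL1 (4.13 ± 0.75, adjusted p = 0.000371), TDH1 (3.96 ± 0.64, adjusted p = 0.000131), SPG4 (3.68 ± 0.93, adjusted p = 0.0046), GAL10 (3.59 ± 0.49, adjusted p = 4.25e-05) and GRE1 (3.01 ± 0.46, adjusted p = 8.06e-05). It was more negative in tps1 for HXT1 (-5.32 ± 1.79, adjusted p = 0.0264), HXT3 (-4.42 ± 1.16, adjusted p = 0.00614), GAP1 (-3.11 ± 0.34, adjusted p = 7.66e-06), MEP2 (-3.11 ± 0.42, adjusted p = 4.25e-05), ALB1 (-3.04 ± 0.57, adjusted p = 0.000494) and ILV5 (-2.86 ± 0.62, adjusted p = 0.00151).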

How the results depend on the processing

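With equal sums 2260 genes were called in late tps1 glucose, 600 at 120 min against 30 and 60 min, and 1834 for the change in tps1 minus that in WT. Against late fructose the count was 87 with a pseudocount of 5 and 109 with only annotated genes of at least 300 bp; fewer genes are tested there. Leaving out 1 library gave 779 to 1205 calls in late glucose, 39 to 388 at 120 min, 88 to 373 against late fructose and 810 to 1265 against WT. The other alternatives kept each of these counts within 1.5 times its value, and no gene called as described was called in the opposite direction under any of them. Of 1200 checks of the 80 named genes called in late glucose, 1096 kept their call, 104 lost it and 0 reversed. Of these genes 41 kept it throughout. In a fit of only the 5 libraries compared, without the spread of the other libraries, 14 of the 80 lost their call. They were SPG4, PCL1, HLR1, ADH1, GAL1, HXT2, SUC2, GPP1, HSP30, CLN1, CYS3, CCW12, AHP1 and GPR1. Of 207 checks of the 23 genes called at 120 min, 34 lost the call. Among genes not called, the difference of HXT3 turned to -0.093 with equal sums. With the fructose course's galactose library as the only baseline that of HXK2 was 0.083 and that of PHO84 0.12, and without 30 min that of HXT4 was 0.090 and that of PHO84 0.035; leaving out 1 library gave -0.36 to 0.083 for HXK2, -0.50 to 0.090 for HXT4 and -0.30 to 0.12 for PHO84. The cause was not tested. No paired analysis was possible for late glucose against galactose because the groups share no time and the labels give no replicate numbers. The comparisons with late fructose and with WT could be matched by time, and the counts were then 199 and 989, and HXT1 lost its call against WT. The depth limits values of a few FPKM, and serial samples of 1 culture limit all p-values.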

Other observations

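The lists not described above had between 0 and 17.4% of their genes called in late tps1 glucose, beside 15.3% over all tested genes. In phosphate uptake 1 of 15 genes was lower and 0 higher (median -0.33), with 6 lower with equal sums. In limma, 0 of 8 RNA polymerase I genes, 0 of 10 genes for protein folding in the endoplasmic reticulum and 0 of 10 genes for peroxisomal fatty acid oxidation were called. At an unadjusted p under 0.05 these lists had 3, 5 and 4 genes, and their medians were -0.42, -0.25 and 0.29. With equal sums 5 and 4 genes of the RNA polymerase I and folding lists were lower. Without the fructose course's galactose library 3 peroxisomal genes were higher, and without 30 min 1. Without 120 min 1 RNA polymerase I gene and 1 folding gene were lower, and without 30 min 1 RNA polymerase I gene. Among ergosterol genes 3 were higher and 1 lower of 23 (17.4%), and with equal sums 0 were higher and 7 lower. Without the fructose course's galactose library 2 were higher and 2 lower, and without the glucose course's or without 60 min 3 were higher and 0 lower. Among purine synthesis genes 2 were higher and 0 lower of 15 (13.3%), and with equal sums 0 were higher and 4 lower; the counts were 1 and 0 without 60 min and 2 and 1 without 30 min. Among autophagy and vacuolar protease genes 1 of 10 was higher (median 0.45), and with equal sums 0 were higher and 3 lower. The counts there were 2 and 1 without 120 min and 2 and 0 without 60 min.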
